A study of Mus musculus with 20 samples.

Results

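The integrated stress response and the unfolded protein response were followed through 10 genes, Atf4, Ddit3, Asns, Trib3, Chac1, Hspa5, Xbp1, Atf6, Herpud1 and Eif2ak1, picked by symbol out of the 55486 genes counted in bone marrow and kidney. All 10 passed the filter on low counts in both tissues. The mice were C57BL/6, 10 weeks old at the start, and the paper describes them as male and female. For 8 weeks they received oxaliplatin, a platinum drug, by intraperitoneal injection (10 mg/kg, dissolved in 5% dextrose) or the dextrose solution without drug as vehicle. Marrow came from the tibia and femur, collected 6 days past the final injection. RNA of whole tissue was sequenced from 5 mice per tissue and treatment, 20 libraries in all. The labels call them biological replicates and do not say whether a number marks 1 mouse in both tissues. No transgene or cell sort was involved, so a level is an average over all cells of the tissue, and in such samples fewer cells of a type and less RNA per cell cannot be told apart.

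The integrated stress response is a brake on protein synthesis. Any of a small family of kinases, among them the heme-regulated kinase encoded by Eif2ak1, phosphorylates the translation factor eIF2, which slows general translation while favouring translation of the transcription factor ATF4 and, through it, transcription of genes for amino acid supply, redox balance and cell death. The unfolded protein response answers misfolded protein in the endoplasmic reticulum (ER) through the sensors PERK, IRE1 and ATF6. PERK is one of the eIF2 kinases, IRE1 splices the Xbp1 mRNA, and ATF6 is cut free from the membrane to act on chaperone genes. Kinase activity, ATF4 translation, Xbp1 splicing and ATF6 cleavage are not visible in counts per gene, so only the mRNA levels of the pathway genes were compared. In marrow, the heme-regulated kinase is best known from red cell precursors and XBP1 from antibody-secreting cells.

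The promoters of the members were looked through for sequence elements known from both branches. RefSeq windows of GRCm38.p6, from 250 bases before to 50 after the start, were at hand for 9 of the 10 genes, all but Atf6, and 4 motifs were searched on both strands. The C/EBP-ATF element (TGATGNAA), through which ATF4 and its partners act, was found in 4 of the 9 members and in 4.51% of the 27025 genes with a window. The ER stress element ERSE (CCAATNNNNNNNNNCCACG) was found in 1 member, Hspa5, and in 0.137% of these genes. Its variant ERSE-II (ATTGG and CCACG, 1 base apart) was found in 1 member, Herpud1, and in 0.0444% of genes. The core of the XBP1 element (TGACGTGG) was found in none of the 9 and in 0.714% of genes. The 6 matches are printed 5′ to 3′ on the gene's strand, with the match in capitals, because they mark which members carry the element of which branch. No 2 of them overlap.
Trib3, C/EBP-ATF element on the opposite strand: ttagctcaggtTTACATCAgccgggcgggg
Asns, C/EBP-ATF element: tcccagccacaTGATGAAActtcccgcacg
Chac1, C/EBP-ATF element on the opposite strand: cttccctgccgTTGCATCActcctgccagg
Herpud1, C/EBP-ATF element on the opposite strand: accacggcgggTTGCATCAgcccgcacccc
Herpud1, ERSE-II: cgggcgctgATTGGGCCACGttggacact
Hspa5, ERSE: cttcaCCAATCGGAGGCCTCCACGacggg
In Asns the match lay 23 to 16 bases before the RefSeq start (chr6:7693214-7693243, minus strand). In Chac1 it lay 193 to 186 bases before the start (chr2:119351038-119351067, plus strand), and in Trib3 it lay at bases 15 to 22 after it (chr2:152344028-152344057, minus strand). Herpud1 carried both elements, 112 to 105 and 52 to 42 bases before the start (chr8:94386306-94386335 and chr8:94386368-94386396, plus strand). The ERSE of Hspa5 lay 65 to 47 bases before the start (chr2:34772020-34772048, plus strand). A match is a string of letters and does not show that a factor was bound.

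The libraries held between 24393007 and 41140527 counted reads, with more in marrow than in kidney (group medians from 26548769 to 35895243). Levels are depth-scaled counts (CPM), scaled by TMM within each tissue. A gene was called changed when its adjusted p in the quasi-likelihood test of edgeR was under 0.05 and its change went beyond 1.5-fold. By that rule 23.3% of the 22363 genes tested in marrow and 11.5% of the 19293 tested in kidney were called. Tissue markers fitted the labels: the erythroid markers summed to at least 25180 CPM in vehicle marrow, and the proximal tubule markers to at least 15590 CPM in vehicle kidney and at most 5.51 CPM in any marrow. The paper states both sexes, yet 4 Y-linked genes averaged between 4.26 and 5.42 on the log2 CPM scale in each of the 20 libraries. None of the 20 can therefore be taken as that of a female mouse.

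In marrow, 3 of the 10 genes were called, against a background of 23.3% of all genes. Trib3 and Xbp1 were called higher, where 11.6% of all genes were, and Eif2ak1 was called lower, where 11.8% were. Hspa5 and Ddit3 also had an adjusted p under 0.05, at changes below 1.5-fold, which makes 5 of 10 against 33.1% of all genes. Groups did not overlap for Trib3, Xbp1, Eif2ak1 and Ddit3, 4 of 10, while this held for 24.9% of all genes. In kidney, Trib3 alone was called, 1 of 10 against 11.5%, and it was called higher as 7.68% of all genes were. Atf4, Xbp1 and Eif2ak1 had an adjusted p under 0.05 there with changes below 1.5-fold, all lower, which with Trib3 makes 4 of 10 against 29.4% of all genes. None of the 10 was called lower in kidney, as 3.81% of all genes were. The kidney groups did not overlap for 1 of 10, Eif2ak1, and for 20.7% of all genes. The median log2 fold change of the 10 was -0.04 in marrow and -0.13 in kidney, beside -0.04 and 0.03 over all genes tested.

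**Figure D1:**
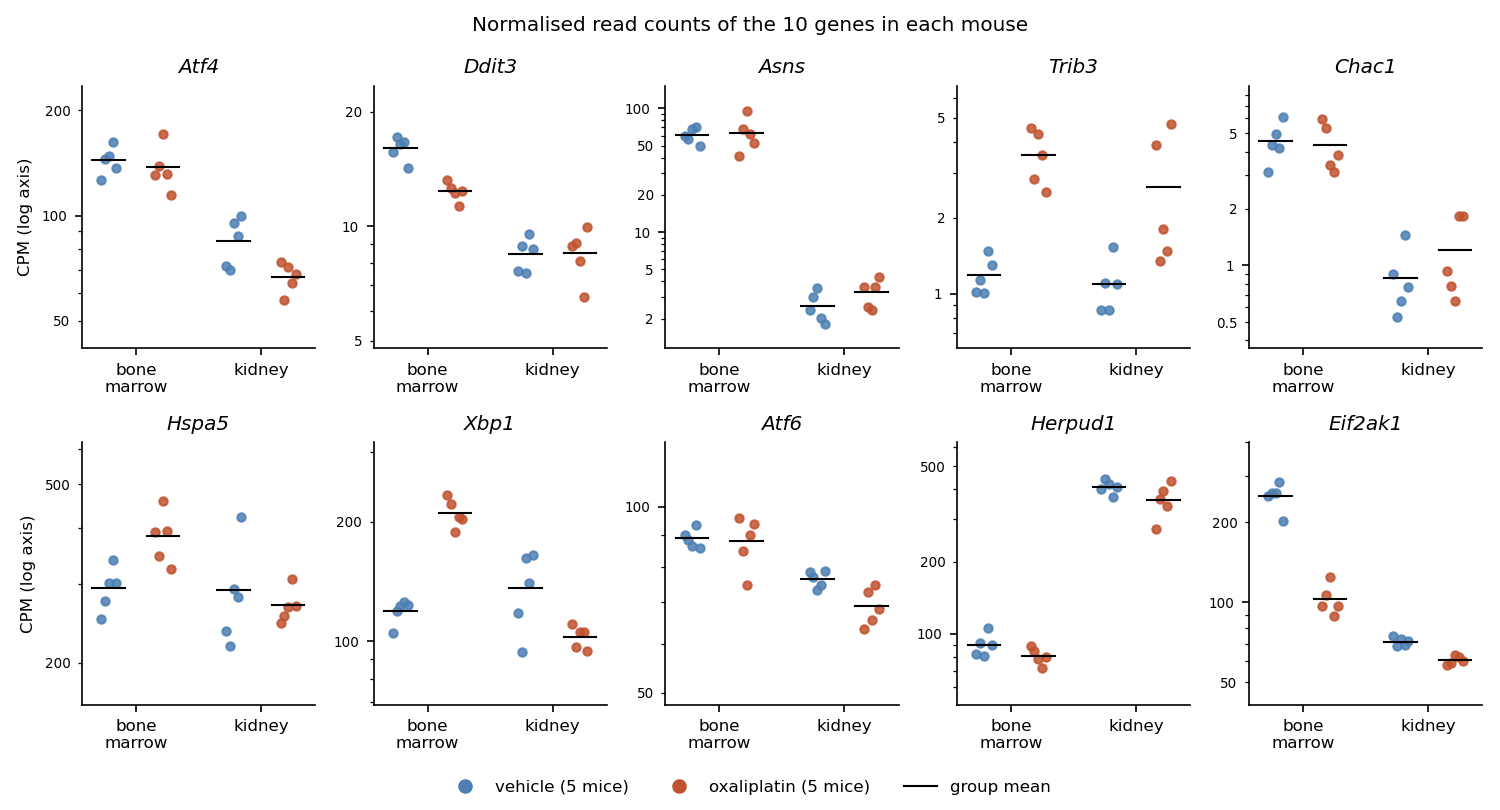
Normalised read counts (CPM, log axis) of each of the 10 genes in every mouse, with vehicle in blue, oxaliplatin in red and a bar at the group mean of 5 mice. In bone marrow the 2 colours separate for Trib3, Xbp1, Eif2ak1 and Ddit3, and in kidney for Eif2ak1. Asns and Chac1 are plotted lower in kidney than in bone marrow, but the tissues were scaled separately and this difference was not tested.

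Among the eIF2 kinases, Eif2ak1 was the only one called in marrow. Eif2ak1 (ENSMUSG00000029613, chr5:143817788-143904251 on GRCm38) encodes the heme-regulated inhibitor HRI, which senses heme shortage and mitochondrial stress. In vehicle marrow its level was 252, 258, 259, 285 and 203 CPM in mice 1 to 5, and in oxaliplatin marrow it was 96.7, 107, 125, 88.9 and 97.3 CPM. Every oxaliplatin mouse lay below every vehicle mouse, with no value between 125 and 203 CPM. The group mean went from 251.5 ± 29.7 to 103 ± 13.9 CPM (SD, n = 5 each), a log2 fold change of -1.29 (SE 0.12, edgeR adjusted p = 3.59e-06). Over 8 other settings it ranged from -1.29 to -1.14 and over 10 fits that each left out 1 mouse from -1.37 to -1.23.

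The fall of Eif2ak1 in marrow went with that of red cell genes, and was smaller than the median of the erythroid markers (-2.64). The summed level of the 11 erythroid markers was 25180 to 43120 CPM in vehicle mice and 3628 to 8138 CPM in oxaliplatin mice, 10 of the 11 were called lower, and none was at 0 in all libraries. Alas2, the first enzyme of heme synthesis in red cells, had a log2 fold change of -2.84, and Slc4a1, the band 3 anion exchanger, one of -2.86. Not all markers fell further than Eif2ak1: Tfrc had -1.39 and Epor -1.24, close to its value. Gata1 was not called (-0.22, edgeR adjusted p = 0.425). Relative to the mean of the erythroid markers, Eif2ak1 was higher after oxaliplatin, from -2.02 ± 0.04 to -1.11 ± 0.22 on the log2 scale (SD, n = 5 each), a difference of 0.91 that held in 5 of 5 mice (two-sided exact permutation test over 252 divisions, p = 0.00794, the smallest it can give, and 0.0318 adjusted over 8 contrasts). The part of red cell content in the fall of Eif2ak1 was not tested. Without strand information, reads of Aimp2 and Ankrd61, which share 8.59% and 3.03% of the Eif2ak1 exon bases on the other strand, cannot be told apart from it there.

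In kidney Eif2ak1 was lower by a smaller step that was as regular. The level was 74.7, 68.4, 73.0, 68.9 and 71.4 CPM in vehicle mice and 58.1, 59.4, 63.4, 62.2 and 60.4 CPM in oxaliplatin mice. The groups did not overlap, with the highest oxaliplatin mouse at 63.4 and the lowest vehicle mouse at 68.4 CPM. The mean went from 71.3 ± 2.64 to 60.7 ± 2.11 CPM, for a log2 fold change of -0.23 (SE 0.06, edgeR adjusted p = 0.00624), below 1.5-fold. The adjusted p stayed under 0.05 in all 10 fits without 1 mouse, and was 0.212 when libraries were scaled by their size alone. In kidney the erythroid markers summed to 289 to 417 CPM in vehicle and 150 to 638 CPM in oxaliplatin mice, and the part of blood in the Eif2ak1 level was not tested.

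The other kinases gave smaller values. In marrow, Eif2ak2, the kinase PKR that senses double-stranded RNA, had a log2 fold change of -0.28 (edgeR adjusted p = 0.0283), which 6 of 10 fits without 1 mouse took above 0.05. Eif2ak3, which encodes PERK, had -0.32 (adjusted p = 0.114), and Eif2ak4, the amino acid sensor GCN2, had -0.16 (adjusted p = 0.173). In kidney the 3 values were 0.22, -0.04 and 0.09, with adjusted p of 0.182 or more. All 7 genes of the kinase and sensor list, Eif2ak1 included, had a log2 fold change below 0 in marrow, and 2 of them were called lower (background 11.8%). With scaling by library size alone 5 of the 7 were below 0. The second called gene was Dele1, which carries mitochondrial stress to HRI, with 65.7 CPM in vehicle and 41.9 CPM in oxaliplatin marrow (log2 fold change -0.65, SE 0.08, adjusted p = 4.73e-05). Dele1 passed the p threshold in every setting, and its change went below 1.5-fold with scaling by library size alone (-0.50) and in a fit without 1 mouse (-0.58).

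Downstream of the kinases, Atf4 mRNA did not differ in marrow beyond the spread between mice. Atf4 (ENSMUSG00000042406, chr15:80255184-80257541) encodes the transcription factor whose translation the pathway favours. Its marrow level was 127, 145, 148, 163 and 137 CPM in vehicle mice and 131, 139, 171, 132 and 115 CPM in oxaliplatin mice. The groups overlapped throughout (144 ± 13.3 against 137 ± 20.8 CPM, log2 fold change -0.07, SE 0.11, edgeR adjusted p = 0.687). In kidney it was 71.6, 69.9, 94.9, 87.4 and 99.8 CPM in vehicle mice and 73.5, 57.2, 71.2, 64.0 and 67.8 CPM in oxaliplatin mice. The 3 highest values were all of vehicle mice, and the ranges overlapped. The kidney log2 fold change was -0.34 (SE 0.10, adjusted p = 0.0166). It was below 1.5-fold, 2 of 10 fits without 1 mouse took the adjusted p above 0.05, up to 0.0546, and scaling by library size alone took it to 0.109.

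Ddit3 and Trib3, both targets of ATF4, went opposite ways in marrow. Ddit3 (ENSMUSG00000025408, chr10:127290774-127296288) encodes CHOP, a factor of prolonged stress and cell death. Its marrow level was 15.6, 17.1, 16.5, 16.7 and 14.3 CPM in vehicle mice and 13.3, 12.6, 12.3, 11.3 and 12.4 CPM in oxaliplatin mice. Every oxaliplatin mouse lay below every vehicle mouse (16.0 ± 1.14 against 12.4 ± 0.69 CPM, log2 fold change -0.38, SE 0.10, edgeR adjusted p = 0.0103), at a change below 1.5-fold. Scaling by library size alone gave -0.23 with an adjusted p of 0.0679. In kidney Ddit3 had means of 8.46 and 8.52 CPM and a log2 fold change of 0.01 (adjusted p = 0.957). A second Ddit3 identifier, whose exons share 6.13% of these exon bases, was listed at 0 in all 20 libraries, and Mars shares 3.97% on the other strand.

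Trib3 was the one member called in both tissues. Trib3 (ENSMUSG00000032715, chr2:152337422-152344032) encodes a pseudokinase that is induced by ATF4 and CHOP and restrains both. Marrow held 1.01, 1.14, 1.01, 1.48 and 1.3 CPM in vehicle mice and 4.52, 2.85, 4.31, 3.54 and 2.53 CPM in oxaliplatin mice. No oxaliplatin value came near the vehicle range, although the levels were low (32 to 185 counted reads per library). The mean went from 1.19 ± 0.20 to 3.55 ± 0.87 CPM, for a log2 fold change of 1.58 (SE 0.23, edgeR adjusted p = 1.69e-04).

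The kidney rise of Trib3 was uneven. The level was 0.86, 1.11, 0.86, 1.53 and 1.09 CPM in vehicle mice and 3.88, 1.35, 1.80, 1.47 and 4.71 CPM in oxaliplatin mice. Mice 1 and 5 of the oxaliplatin group stood well above the other three, 2 of which lay below the highest vehicle mouse. The log2 fold change was 1.28 (SE 0.35, adjusted p = 0.0127) and stayed between 0.97 and 1.44, with adjusted p of at most 0.0375, over the 10 fits without 1 mouse. The marrow and kidney changes differed by 0.36 on the log2 scale (SE 0.44, adjusted p = 0.577 for the tissue by treatment term), so no difference between tissues was detected.

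Asns and Chac1, 2 further ATF4 targets whose promoters carry the C/EBP-ATF element, gave no call in either tissue. Asns (ENSMUSG00000029752, chr6:7675169-7693254) encodes asparagine synthetase. Marrow held 59.6, 56.4, 68.2, 70.4 and 49.5 CPM in vehicle mice and 41.0, 67.4, 95.5, 61.6 and 52.6 CPM in oxaliplatin mice. Oxaliplatin mice included both the lowest and the highest of the 10 values (log2 fold change 0.07, SE 0.19, edgeR adjusted p = 0.828). In kidney, where Asns stood at 1.82 to 4.35 CPM in all 10 mice, the log2 fold change was 0.37 (SE 0.22, adjusted p = 0.218).

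Chac1 (ENSMUSG00000027313, chr2:119351229-119354381) encodes an enzyme that degrades glutathione. Marrow held 3.13 to 6.08 CPM in vehicle and 3.14 to 5.93 CPM in oxaliplatin mice, nearly the same range (log2 fold change -0.07, SE 0.23, edgeR adjusted p = 0.841). In kidney it was 0.53 to 1.45 CPM in vehicle mice and 0.65 to 1.83 CPM in oxaliplatin mice. Mice 4 and 5 of the oxaliplatin group had the 2 highest values, and the ranges overlapped (0.49, SE 0.35, adjusted p = 0.317).

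On the ER side, Xbp1 was called higher in marrow and had a smaller difference of the opposite sign in kidney. Xbp1 (ENSMUSG00000020484, chr11:5520659-5525893) encodes the transcription factor that IRE1 activates, needed for secretory cells. Marrow held 105, 119, 123, 126 and 123 CPM in vehicle mice and 233, 222, 188, 205 and 204 CPM in oxaliplatin mice. The lowest oxaliplatin mouse, at 188 CPM, lay above the highest vehicle mouse, at 126 CPM. The mean went from 119 ± 8.30 to 210 ± 17.4 CPM, for a log2 fold change of 0.82 (SE 0.09, edgeR adjusted p = 1.47e-05), and all 8 other settings gave 0.80 to 0.97.

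The rise of Xbp1 in marrow came as B cell markers fell and plasma cell markers were split. The 8 B cell markers summed to 340 to 580 CPM in vehicle and 113 to 161 CPM in oxaliplatin mice, with 7 of 8 called lower. The 7 plasma cell markers summed to 187 to 281 and to 268 to 542 CPM. Jchain, the joining chain of secreted antibodies (log2 fold change 1.35), Sdc1 (1.16) and Prdm1 (0.81) were called higher, and Irf4 was called lower (-1.75). Tnfrsf17 (0.91), Tnfrsf13b (-0.11) and Mzb1 (-0.39) were not called, and none of the 7 was at 0 in all libraries. By the group means the plasma cell sum rose 1.82-fold, beside 1.77-fold for Xbp1 by edgeR. Relative to the mean of the plasma cell markers, which weighs each marker alike, Xbp1 was higher by 0.56 on the log2 scale (exact permutation test, p = 0.0159, adjusted 0.0424). On that scale 4 of 5 oxaliplatin mice lay above all vehicle mice. Relative to the B cell markers Xbp1 was higher by 3.04, in 5 of 5 (exact permutation test, p = 0.00794, adjusted 0.0318). The B cell contrast cannot show whether Xbp1 rose per B cell. Without overlap between groups, Xbp1 was higher and 7 of 8 B cell markers were lower, so their difference was bound to be large. Macrophage markers, at 1067 to 1508 and 1295 to 2863 CPM, and adipocyte markers, at 76.2 to 143 and 492 to 2460 CPM, also moved with treatment, and their part in the Xbp1 level was not tested.

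**Figure D2:**
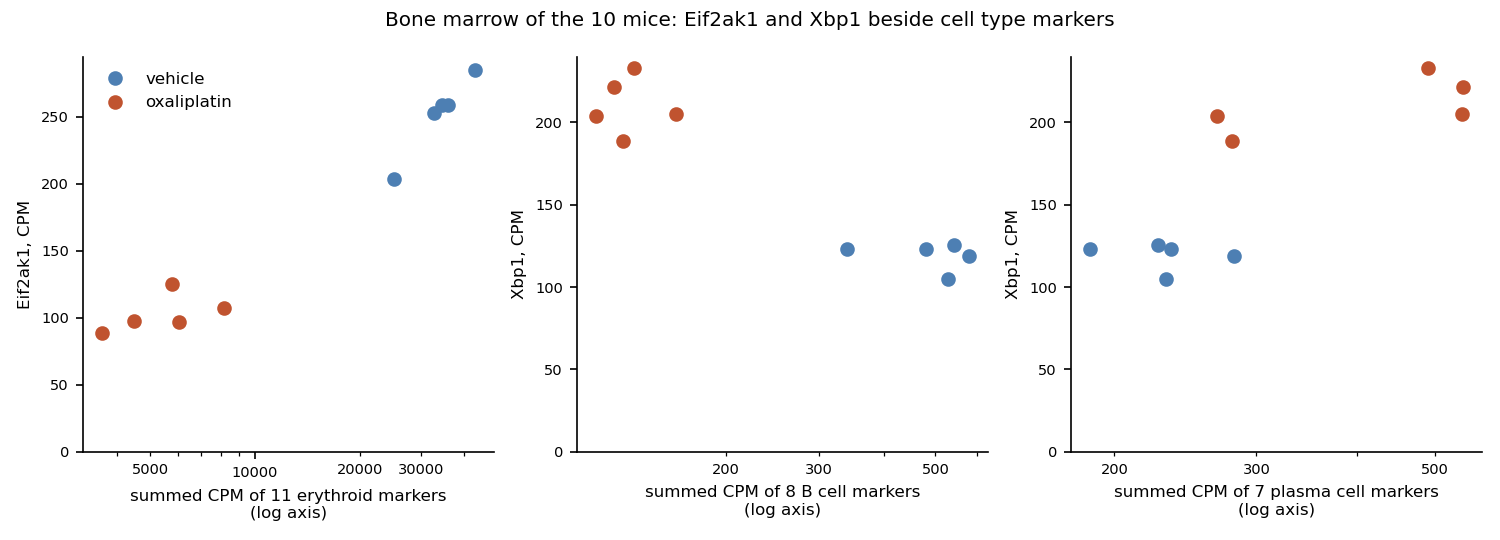
Eif2ak1 or Xbp1 (CPM) in bone marrow of each mouse against the summed CPM of a cell type's markers (log axis), vehicle in blue and oxaliplatin in red. Eif2ak1 and the erythroid sum were both lower in every oxaliplatin mouse, Xbp1 was higher in every oxaliplatin mouse although the B cell sum was lower, and the plasma cell sums of the 2 groups overlapped between 268 and 281 CPM.

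In kidney Xbp1 was lower. The level was 118, 94.1, 162, 140 and 165 CPM in vehicle mice and 110, 96.5, 105, 106 and 94.1 CPM in oxaliplatin mice. The vehicle mice spread widely and vehicle mouse 2 lay at the bottom of the oxaliplatin range (136 ± 30.2 against 102 ± 6.79 CPM). The log2 fold change was -0.41 (SE 0.13, edgeR adjusted p = 0.0327), below 1.5-fold, and 7 of 10 fits without 1 mouse raised the adjusted p to 0.05 or more, up to 0.102. Scaling by library size alone gave -0.27 with an adjusted p of 0.102, and leaving out the filter on low counts also took it above 0.05. Relative to the proximal tubule markers the difference was -0.31 (exact permutation test, p = 0.111, adjusted 0.178). The proximal tubule markers summed to 15590 to 18110 CPM in vehicle and 12390 to 15810 CPM in oxaliplatin mice, with 1 of 6 called lower.

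Hspa5 was higher in marrow alone, by a smaller step. Hspa5 (ENSMUSG00000026864, chr2:34771970-34777547) encodes BiP, the main ER chaperone, and carries the ERSE. Marrow held 250, 275, 301, 339 and 302 CPM in vehicle mice and 391, 346, 460, 393 and 324 CPM in oxaliplatin mice. In 4 of 5 oxaliplatin mice the level was above every vehicle mouse (293 ± 33.0 against 383 ± 52.3 CPM, log2 fold change 0.38, SE 0.12, edgeR adjusted p = 0.022), at a change below 1.5-fold. In 2 of 10 fits without 1 mouse the adjusted p was above 0.05, up to 0.0679. In kidney it was 236, 218, 292, 281 and 423 CPM in vehicle mice and 245, 255, 267, 308 and 268 CPM in oxaliplatin mice. Vehicle mouse 5 set the upper end and the groups overlapped (-0.11, SE 0.16, adjusted p = 0.631). Relative to the plasma cell markers Hspa5 differed in marrow by 0.12 with the mean of the markers (exact permutation test, p = 0.571, adjusted 0.653). With their median the difference was 0.81, at an unadjusted p under 0.05 by the same test, so the outcome depends on the summary used.

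Atf6 and Herpud1 were not called in either tissue. Atf6 (ENSMUSG00000026663, chr1:170704674-170867771) encodes the membrane-bound sensor and factor. Its marrow level was 85.8 to 93.6 CPM in vehicle and 74.8 to 95.9 CPM in oxaliplatin mice (log2 fold change -0.02, SE 0.08, edgeR adjusted p = 0.909). In kidney, where vehicle mice held 73.4 to 78.8 CPM and oxaliplatin mice 63.5 to 74.7 CPM, it was -0.15 (SE 0.06, adjusted p = 0.0838). Of the 5 oxaliplatin kidneys, 4 lay below all vehicle kidneys. The log2 fold changes of Atf6b, its relative, were 0.01 and -0.15, and those of Ern1, which encodes IRE1, were -0.12 and -0.02 (adjusted p of 0.158 or more in marrow and kidney).

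Herpud1 (ENSMUSG00000031770, chr8:94386438-94395377) encodes an ER membrane protein that helps degrade misfolded proteins, and its promoter holds elements of both branches. Marrow held 82.7, 91.7, 81.0, 105 and 89.5 CPM in vehicle mice and 89.0, 84.8, 78.8, 72.2 and 80.0 CPM in oxaliplatin mice. The groups overlapped (log2 fold change -0.15, SE 0.09, edgeR adjusted p = 0.235). In kidney it was 404, 442, 421, 373 and 409 CPM in vehicle mice and 273, 364, 396, 341 and 432 CPM in oxaliplatin mice. The oxaliplatin mice spread wider and overlapped the vehicle mice (-0.18, SE 0.10, adjusted p = 0.176). Relative to the plasma cell markers its marrow difference was -0.41 with the mean of the markers (exact permutation test, p = 0.0476, adjusted 0.0952), and the direction turned with their median (0.28).

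The response of 3 of the 10 genes differed between tissues, while the tissue by treatment term of edgeR passed an adjusted p of 0.05 for 30.1% of 24321 genes. The log2 fold change in marrow minus that in kidney was 1.29 for Xbp1 (SE 0.16, adjusted p = 2.56e-06), -0.99 for Eif2ak1 (SE 0.13, adjusted p = 6.61e-06) and 0.56 for Hspa5 (SE 0.20, adjusted p = 0.0389). Xbp1 and Eif2ak1 passed in all 20 fits without 1 library. Hspa5 did not pass in 11 of the 20, with adjusted p of up to 0.0923 without kidney vehicle mouse 5, nor when each sample had to hold 10 counts or more (adjusted p = 0.0636), a filter under which Ddit3 passed (-0.44, adjusted p = 0.0211). For the other 7 genes the adjusted p was between 0.125 and 0.695.

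**Figure D3:**
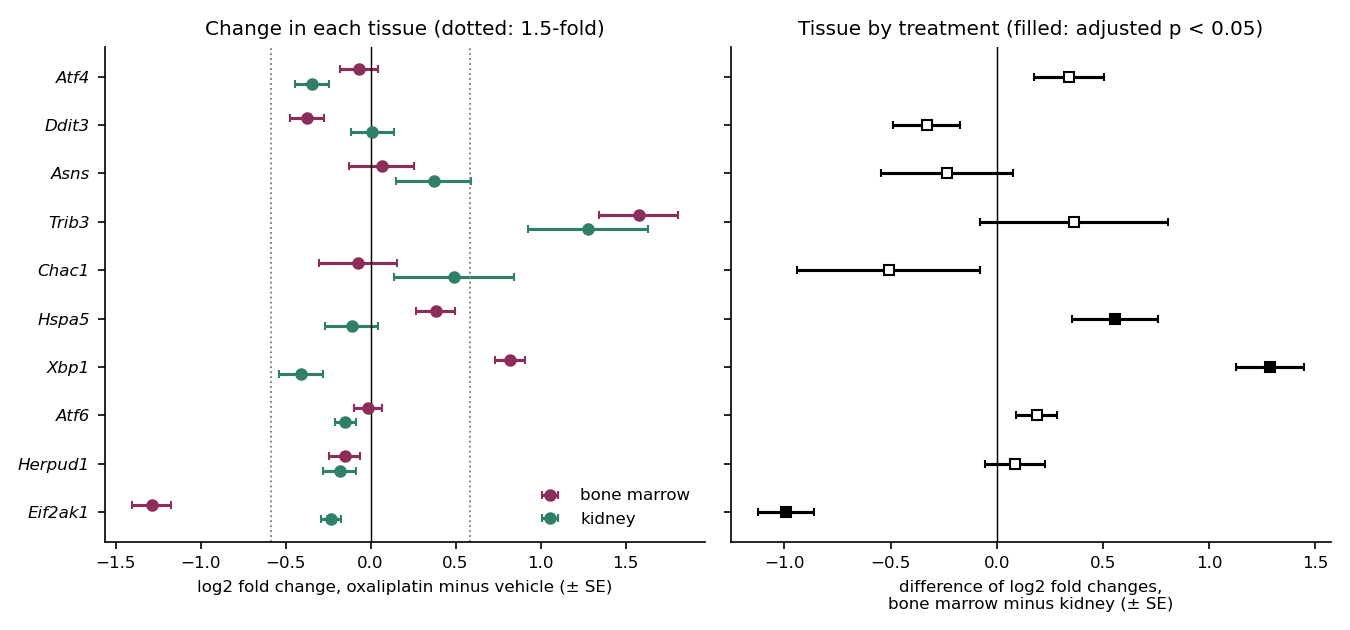
Left, log2 fold change of each of the 10 genes in bone marrow and kidney with its standard error, with dotted lines at 1.5-fold. Right, the difference between the 2 tissues with its standard error, filled where the adjusted p is under 0.05. Trib3 lies beyond 1.5-fold in both tissues, Xbp1 lies on opposite sides of 0, and the filled squares are Hspa5, Xbp1 and Eif2ak1.

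The order of levels was compared per length, as CPM per kilobase of exon bases not shared with another gene. Reads on shared bases were kept, which can raise the values of Ddit3 and Eif2ak1, the members with such bases. The order of Ddit3 and Atf6 is therefore not settled. In vehicle marrow Hspa5 stood highest (69.4 ± 7.79) and Atf4 (61.0 ± 5.64) and Eif2ak1 (50.2 ± 5.93) followed, then Herpud1 (38.6 ± 4.13) and Xbp1 (36.7 ± 2.55), with the ranges over mice overlapping between neighbours. Asns (22.2), Ddit3 (10.5), Atf6 (9.63), Chac1 (2.78) and Trib3 (0.56) came after, and of these only Ddit3 and Atf6 overlapped. In oxaliplatin marrow Xbp1 stood second (64.8 ± 5.35) and Eif2ak1 sixth (20.5 ± 2.76). In vehicle kidney Herpud1 led with 176 ± 10.8, then Hspa5 (68.5 ± 19.0), Xbp1 (41.9 ± 9.30), Atf4 (35.9 ± 5.73) and Eif2ak1 (14.2 ± 0.53). Of these neighbours, Xbp1 and Atf4 overlapped in range and the others did not. Asns stood at 0.93 per kilobase in vehicle kidney and 22.2 in vehicle marrow, though levels of the tissues were scaled separately and are given side by side only.

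The other genes of both pathways were read from a list of 100 in 10 groups. In marrow, 98 were tested, 16 were called higher (background 11.6%) and 6 lower (background 11.8%), 22.4% in all. Without the 1.5-fold threshold 37 were higher, where 16.3% of all genes were, and 13 were lower, where 16.8% were. In kidney, 96 were tested, 7 were called higher (background 7.68%) and 1 lower (background 3.81%), 8.33% in all. Without the fold threshold 14 were higher and 24 lower there, against 14.4% and 15% of all genes. The tissue by treatment test was passed by 53 of 99, against 30.1% of all genes. In the 2 tissues the median log2 fold changes were 0.24 and -0.10, and scaling by library size alone, which raised the median of all genes by 0.15 and 0.13, moved them to 0.40 and 0.04.

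**Figure D4:**
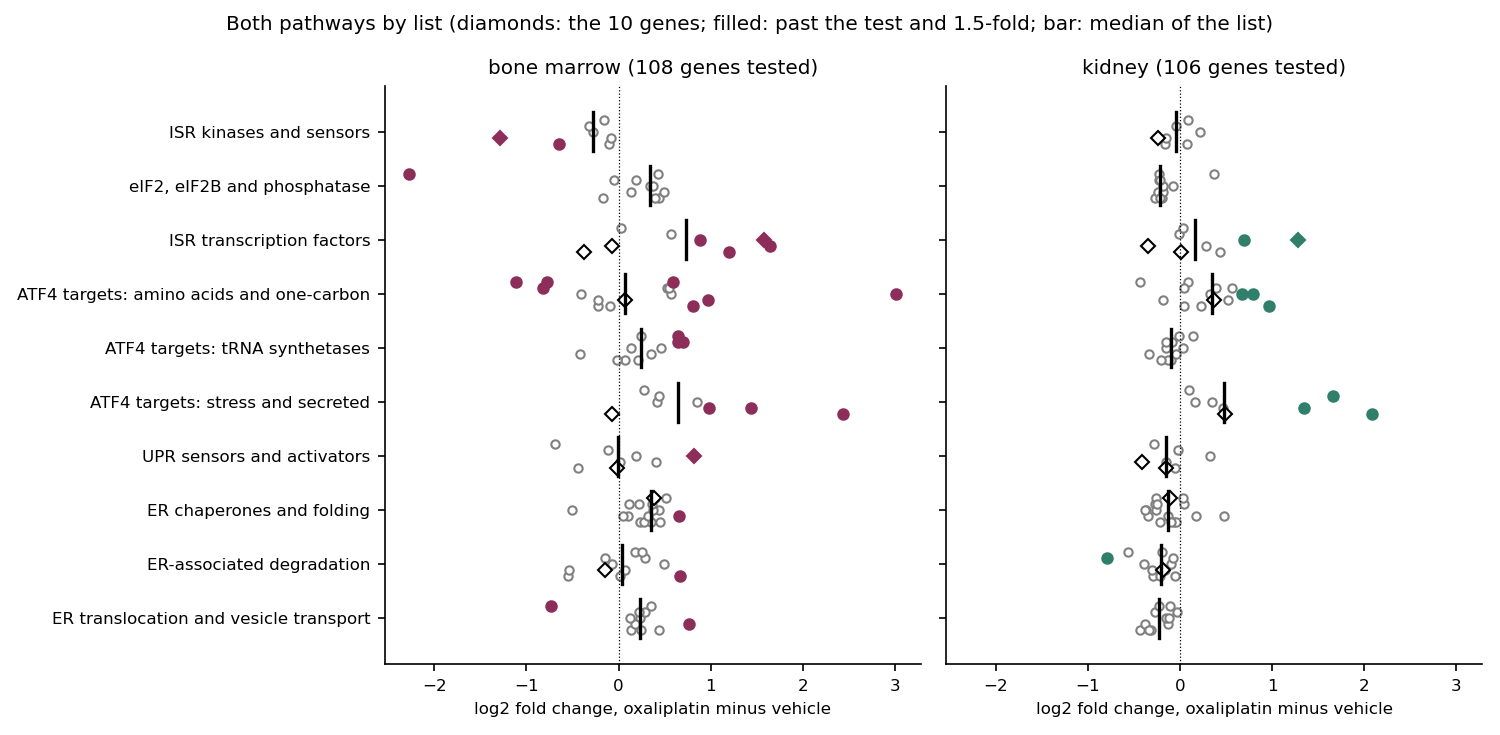
Log2 fold change of each tested gene of both pathways by group, with the 10 genes as diamonds, called genes filled and the median of the group as a bar. In bone marrow 16 of 17 ER chaperone and folding genes lie right of 0 with a median of 0.35, and in kidney all 12 ER-associated degradation genes lie left of 0 with a median of -0.20, of which 3 move right of 0 with scaling by library size alone.

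The eIF2 phosphatase subunit Ppp1r15a, known as GADD34, had the largest fall of the list. Ppp1r15a ends the stress response by restoring eIF2. Its marrow mean went from 338 to 70.0 CPM with no overlap between groups (log2 fold change -2.27, SE 0.16, edgeR adjusted p = 4.55e-07). In kidney the mean went from 16.6 to 21.4 CPM (0.37, SE 0.11, adjusted p = 0.016), below 1.5-fold, and the difference between tissues was -2.58 (SE 0.20, adjusted p = 3.85e-09).

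Partners and targets of ATF4 rose in part of the list. Among the 8 transcription factors of the list, Atf4, Ddit3 and Trib3 included, 4 were called higher in marrow (background 11.6%) and 2 in kidney (background 7.68%). Nupr1, a small stress regulator, went from 6.85 to 21.4 CPM in marrow (1.65, edgeR adjusted p = 5.15e-06), Atf3 from 4.61 to 10.6 CPM (1.20, adjusted p = 0.00114) and Atf5 from 15.1 to 27.8 CPM (0.89, adjusted p = 0.00109). Atf5 was called in kidney too, from 14.1 to 22.8 CPM (0.70, adjusted p = 0.0354), with 6 of 10 fits without 1 mouse at an adjusted p of 0.05 or more, up to 0.0804.

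Amino acid genes were called in both directions in marrow. Of 15 tested in that group, Asns included, 4 were called higher (background 11.6%) and 3 lower (background 11.8%). Gpt2, a mitochondrial alanine transaminase, rose from 2.60 to 21.0 CPM (3.01, SE 0.21, edgeR adjusted p = 4.44e-07), and the serine synthesis enzymes Psat1 (0.97, adjusted p = 0.00112) and Phgdh (0.81, adjusted p = 0.00401) rose as well. The falls were Pck2, the mitochondrial carboxykinase (-1.11, adjusted p = 9.28e-05), and the transporters Slc7a11 (-0.82, adjusted p = 0.0137) and Slc7a5 (-0.78, adjusted p = 0.00184). Shmt2, a one-carbon enzyme named after its values were seen, was the fourth gene called higher (0.59, adjusted p = 0.02), and its adjusted p reached 0.0537 without 1 mouse. The cystine transporter Slc7a11 lost its adjusted p under 0.05 with the covariate of Y-linked genes (0.0762) and with scaling by library size alone.

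In kidney the same group had 3 genes called higher (background 7.68%) and none lower (background 3.81%) among 14. They were Aldh1l2, a mitochondrial folate enzyme, from 2.69 to 5.27 CPM (0.96, edgeR adjusted p = 0.00376), Gpt2 from 89.5 to 155 CPM (0.79, adjusted p = 7.94e-05) and Slc7a1, a transporter of basic amino acids, from 9.75 to 15.5 CPM (0.67, adjusted p = 0.000491), at 0.58 without vehicle mouse 1. For Slc7a5, Slc7a1, Pck2, Psat1 and Gpt2 the response differed between tissues, by -1.27, -1.02, -1.13, 1.22 and 2.28 on the log2 scale (adjusted p of at most 0.000302).

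Stress and secreted targets were called higher in both tissues, 3 of 8 in each and none lower. Over all genes, 11.6% were called higher in marrow and 7.68% in kidney. Ddit4, an inhibitor of mTORC1, rose in marrow from 13.8 to 37.3 CPM (1.44, SE 0.41, edgeR adjusted p = 0.0196) and in kidney from 26.0 to 66.0 CPM (1.34, SE 0.31, adjusted p = 0.0123). The marrow call of Ddit4 was lost without oxaliplatin mouse 1 (adjusted p = 0.052) with the covariate of Y-linked genes (0.71, adjusted p = 0.181) and without the filter on low counts. Vegfa, the vascular growth factor, rose in marrow (0.98, adjusted p = 7.98e-05), as did Stc2, named there after its values were seen (0.38 to 2.04 CPM, 2.43, adjusted p = 0.00226). Stc2 was near the floor in vehicle marrow, with 2 to 26 counted reads per library. In kidney the glycoprotein gene Stc2 went from 2.45 to 10.4 CPM (2.08, adjusted p = 8.93e-05) and the stress cytokine gene Gdf15 from 11.6 to 36.8 CPM (1.66, adjusted p = 0.00025).

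The adipocyte markers, which are no genes of the pathway, rose in the same marrows as Gpt2 and Vegfa, with 6 of 6 called higher there. In kidney, 4 of 5 of them were called higher, with sums of 20.1 to 41.7 CPM in vehicle and 60.4 to 176 CPM in oxaliplatin mice. Their part in these rises was not tested.

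ER chaperone and folding genes were mostly above 0 in marrow, the 3 ER groups were mostly below 0 in kidney, and few of their genes were called. Of 17 chaperone and folding genes, Hspa5 included, 16 had a log2 fold change above 0 in marrow, with 1 called higher, Sdf2l1, and 8 more past the adjusted p and higher at changes below 1.5-fold. The 1 gene below 0 was past the adjusted p as well, at a change below 1.5-fold (16.8% of all genes were lower at that p). Without oxaliplatin mouse 3 the change of Sdf2l1 was also below 1.5-fold (0.48). Over all genes, 10529 of 22363 were above 0 in marrow and 10178 of 19293 in kidney. In marrow 11.6% of all genes were called higher, and 16.3% were higher at an adjusted p under 0.05 with no fold threshold. In kidney 3.81% were called lower, and 15% were lower at that p alone. In kidney 13 of the 17 were below 0, none was called, and 5 were past the adjusted p alone, all lower: Pdia3, P4hb, Dnajb9, Dnajb11 and Dnajc3, with log2 fold changes from -0.37 to -0.21. With scaling by library size alone 8 of the 17 were below 0. The ER-associated degradation genes were all below 0 in kidney, 12 of 12, and Edem1, which marks misfolded glycoproteins for disposal, was called lower (167 to 96.5 CPM, -0.79, SE 0.09, edgeR adjusted p = 6.84e-06). In marrow 7 of the 12 were above 0, with a median of 0.04. Edem1 had 0.29 there (adjusted p = 0.0139), below 1.5-fold, and the tissue difference was 1.14 (SE 0.12, adjusted p = 4.42e-07). All 11 translocation and transport genes were below 0 in kidney, with none called and 7 of 11 below 0 with scaling by library size alone. In marrow Sec61g, a subunit of the translocation channel, was called lower (-0.73, adjusted p = 0.000392), at -0.58 with scaling by library size alone. Sdf2l1 (0.66, adjusted p = 0.00997), the degradation gene Selenos (0.67, adjusted p = 0.000282) and the vesicle coat gene Sec24d (0.76, adjusted p = 0.000363), called higher in marrow, and the 5 kidney chaperone and folding genes were named after their values were seen.

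Single mice carried much of the spread in these groups. Oxaliplatin marrow 3 held the highest of its group's 5 values for all 11 tRNA synthetases, all 11 translocation and transport genes and 13 of 17 chaperone and folding genes, among them Hspa5. For Atf4, Asns and Eif2ak1 it was the highest too, and for all genes tested it was so in 31.3%. Of the 11 tRNA synthetase genes, 3 were called higher in marrow (background 11.6%), Gars, Tars and Wars, all named after their values were seen. Without oxaliplatin marrow 3 their log2 fold changes were 0.52, 0.43 and 0.52, below 1.5-fold, where all mice gave 0.69, 0.65 and 0.64. Vehicle marrow 4 was the highest of its group for 8 of the 10 genes, beside 32.1% of all genes. In kidney, vehicle mouse 5 held the highest value for 14 of 17 chaperone and folding genes, beside 23% of all genes.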

How the data were processed

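The authors deposited raw read counts per gene for 20 RNA libraries (5 mice per tissue and treatment), unnormalized. The paper's methods name STAR 2.5.1a, Ensembl release 101, Partek Flow counts of reads that aligned once and to 1 gene, and SMARTer libraries, while the submitters' processing notes name STAR, featureCounts and Salmon, and the labels ribosomal RNA removal with random priming. Strand use is not given in the sources used here. Of 55774 lines, 287 repeated identifiers and 1 line without a value were dropped.

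Counts were filtered (filterByExpr, minimum count 10), scaled by TMM and tested per tissue over all genes with the two-sided robust quasi-likelihood test of edgeR 4.0.16 (limma 3.58.1, R 4.3.3) with Benjamini-Hochberg adjustment. A tissue by treatment term was tested over 20 libraries. All single-gene adjusted p values are of these fits. Marker contrasts (log2 CPM, prior count 2) used exact permutation tests. Mars was matched by an older symbol, and Ahsp is not analysed here. CPM per kilobase used GENCODE M21 exons without the bases shared with other genes (5011 of 5670 left for Eif2ak1, 1527 of 1713 for Ddit3). All counted reads of a gene were kept. Depth put 3 counts at 0.0668 to 0.0975 CPM in marrow and 0.09 to 0.13 in kidney (counting error only).

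All 10 genes, the kinases, Ern1 and Atf6b were named in any case, and of the other pathway genes the 8 largest called rises and falls whose mean log2 CPM reached 1. The members and lists were chosen with earlier results of these data known. Alternatives were DESeq2 1.42.0 (the study's tool), scalings, filters, thresholds, a Y-linked covariate, hemoglobin genes left out, a replicate block and mice left out. The fit was tested on simulated data.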

Additional observations from a re-analysis of the deposited data

Results flagged for a closer look

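The log2 fold changes of 3 of the 10 genes differed between bone marrow and kidney by the tissue by treatment term of edgeR, where 30.1% of all genes tested did. For Xbp1, marrow minus kidney was 1.29 (SE 0.16, adjusted p = 2.56e-06), with 5 of 5 marrows of oxaliplatin mice above all vehicle marrows. For Eif2ak1 it was -0.99 (SE 0.13, adjusted p = 6.61e-06), with 5 of 5 below all vehicle mice in each tissue. For Hspa5 it was 0.56 (SE 0.20, adjusted p = 0.0389), with 4 of 5 marrows above all vehicle marrows, and the adjusted p went as high as 0.0923 without kidney vehicle mouse 5. No single mouse stood apart from its group by Dixon's criterion for any of the 10 genes.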

How the results depend on the processing

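The counts of called members, 3 in marrow and 1 in kidney, were the same in every other setting but 2 of the thresholds: 5 and 4 without a fold threshold, and 2 in marrow beyond 2-fold. Pathway genes called in marrow went from 16 higher and 6 lower to 37 and 13 without a fold threshold, 5 and 2 beyond 2-fold and 26 and 3 with library size alone, and 25 were higher with the Y-linked covariate. In kidney they went from 7 and 1 to 14 and 24, 3 and 0, and 11 higher with library size alone, and fits without 1 mouse gave 1 to 2 lower. Over all genes, calls beyond 2-fold were 3231 in marrow and 941 in kidney, and 5679 in kidney without a fold threshold. Library size alone took the share of calls that were higher from 49.6% to 63.4% in marrow and from 66.8% to 82.7% in kidney. The replicate block left 3 and 1 called members, with Trib3 in kidney at an adjusted p of 0.0311 by edgeR. Same-numbered mice deviated together with r of -0.154 to 0.228, which did not meet the bar for pairing them. Whether 1 mouse gave both tissues cannot be told from this.

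Changes that were not called turned sign in marrow with library size alone for Atf4 (0.0835), Chac1 (0.0644), Atf6 (0.133) and Ern1 (0.0288), with the Y-linked covariate for Atf4 (0.0338), and for Atf6 with DESeq2 (0.0224), with RLE size factors (0.0225) and without hemoglobin genes (0.0124). In kidney they did so with library size alone for Hspa5 (0.0314), Eif2ak3 (0.0928) and Ern1 (0.115, and 0.00982 with 10 counts or more required in each sample), and the tissue difference of Herpud1 did so with that filter (-0.0189). Fits without 1 mouse ranged in marrow from -0.159 to 0.0348 for Atf4, -0.128 to 0.190 for Asns, -0.213 to 0.0496 for Chac1, -0.0469 to 0.0376 for Atf6 and -0.0127 to 0.0736 for Atf6b, and in kidney from -0.0431 to 0.103 for Ddit3, -0.201 to 0.0641 for Hspa5, -0.0768 to 0.00717 for Eif2ak3 and -0.0330 to 0.0122 for Ern1. Relative to the median of the plasma cell markers, Herpud1 differed by 0.282 (-0.407 with their mean) and Hspa5 by 0.813 (0.123 with their mean). Relative to that of the proximal tubule markers, Hspa5 differed by 0.269 (-0.008 with their mean) and Atf4 by 0.0109 (-0.266 with their mean). Without 1 mouse, Herpud1 relative to plasma cell markers ranged from -0.496 to -0.275, and relative to proximal tubule markers Xbp1 ranged from -0.443 to -0.235 and Hspa5 from -0.106 to 0.117. The cause of these moves was not tested.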
